A study of Mus musculus with 6 samples.

Results

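A set of 8 genes for surface proteins of blood progenitors were followed in mouse MLL-ENL leukemias with and without Runx1. The set was Cd34, Kit, Flt3, Cd93, Eng, Prom1, Cd47 and Cd44, which were chosen by name and are 8 of 18194 genes measured. Every probe set that the array's annotation assigns to 1 of these symbols was taken, 21 of 45101 in all. A probe set is the group of array probes read out as 1 value, and its linear intensity is the unit below. RNA was measured on a 1-colour Affymetrix mouse array in 6 leukemias of the C57BL/6 strain. In the 3 arrays labelled Runx1-KO the leukemia arose from bone marrow with an excised Runx1 gene, and in the 3 labelled Control from marrow with an intact gene. Both groups carried MLL-ENL, an oncogene that joins MLL, a histone methyltransferase, to the elongation factor ENL, introduced by transduction before transplantation into congenic mice, and both were collected from moribund recipients. Each array stands for 1 independent leukemia. The ages of the mice, the agent that excised Runx1 and the sort or purity of the cells are not given in the sources used here.

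CD34 is a sialomucin of early blood progenitors and endothelium that can bind L-selectin. KIT and FLT3 are related receptor tyrosine kinases, activated by stem cell factor and by FLT3 ligand, that drive the survival and growth of progenitors. CD93 is a C-type lectin-like glycoprotein of early progenitors, monocytes and endothelium that has been used to mark stem-like cells of human leukemias with MLL rearrangements. Endoglin, encoded by Eng, is a co-receptor for TGF-beta and BMP ligands, and prominin-1 (CD133) is a cholesterol-binding protein of membrane protrusions. CD47 signals through SIRP-alpha on phagocytes to inhibit engulfment, and CD44 binds hyaluronan and holds cells in the marrow niche.

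Since RUNX1 is a DNA-binding factor, the upstream sequences of the members were read for its core motif. RefSeq promoters on GRCm38.p6 were matched for 7 of the 8 members, as 10 start sites, and the 250 bases before each start were searched on both strands for TGTGGT and TGCGGT, which do not overlap each other at a site. Of the 10 windows, 2 held a match, 1 of Flt3 and 1 of the 2 of Prom1. Over all 32851 promoters of that length the share with a match was 18.6%. The 3 windows shown are those 2, with the match in capitals, and that of Cd34, the member with the largest difference between the groups, which has no match. A match describes letters in this window and is not a measured binding site.
Flt3 chr5:147400490-147400739, minus strand: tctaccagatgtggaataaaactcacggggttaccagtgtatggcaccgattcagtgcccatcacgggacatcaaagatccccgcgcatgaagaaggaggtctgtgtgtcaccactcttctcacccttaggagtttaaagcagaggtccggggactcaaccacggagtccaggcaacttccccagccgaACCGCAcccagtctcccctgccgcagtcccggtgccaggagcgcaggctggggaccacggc
Prom1 chr5:44101737-44101986, minus strand: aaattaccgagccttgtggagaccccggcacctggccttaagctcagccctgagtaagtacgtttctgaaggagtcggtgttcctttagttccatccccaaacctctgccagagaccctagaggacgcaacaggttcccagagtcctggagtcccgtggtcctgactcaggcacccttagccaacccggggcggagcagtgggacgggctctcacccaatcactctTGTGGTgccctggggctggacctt
Cd34 chr1:194938571-194938820, plus strand: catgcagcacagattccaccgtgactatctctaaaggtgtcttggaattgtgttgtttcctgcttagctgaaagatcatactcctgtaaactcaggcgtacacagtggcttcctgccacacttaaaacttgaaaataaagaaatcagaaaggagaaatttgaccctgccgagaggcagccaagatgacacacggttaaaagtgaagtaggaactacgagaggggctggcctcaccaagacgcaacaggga
In Flt3 the capitals are TGCGGT on the opposite strand, 61 to 56 bases before the start, and in Prom1 they are TGTGGT, 24 to 19 bases before it.

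The arrays were alike in overall level, with median intensities of 24.4 to 26.0. A background limit was set on each array, at the brightest reading of 27 spike-in controls that had no added target, 14.1 to 22.5. The 9 markers of leukemic myeloid cells, among them Ptprc (CD45), Itgam, Mpo and Hoxa9, lay above that limit on all 6 arrays. The 6 Runx1 probe sets were 1.70-fold to 3.18-fold higher in the arrays labelled Runx1-KO, and no source used here places them relative to the excised part, so they check nothing and directions below refer to arrays as labelled. The Y-linked genes Eif2s3y, Kdm5d and Uty were below background on the 3 arrays labelled Runx1-KO and above it on the 3 Control arrays, so sex and genotype cannot be told apart in any comparison. Runx1-KO 1 had a Gapdh 3' to 5' signal ratio, a measure of RNA degradation, of 7.10 against 2.67 to 3.02 on the other arrays. By the actin control the same ratio was 1.11 on Runx1-KO 1 and 1.03 to 1.10 on the other arrays. In Control 1 the summed intensity of 9 erythroid genes was 6834, against 844 to 1274 elsewhere. That of 9 T cell genes was 258 in Control 1, against 128 to 210 elsewhere. Xist, a further sex-linked gene, read 331, 85.4 and 25.3 in Control 1, 2 and 3. On Runx1-KO 1, 2 and 3 it read 1624, 1857 and 1895. The part of other cells in the readings of Control 1 was not tested.

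None of the 8 genes passed the test between the groups. Intensities were compared as log2 values with limma (lmFit and eBayes) and Benjamini-Hochberg adjustment over all 18194 genes, 1 probe set per gene, at an adjusted p under 0.05. Over all genes that rule called 0.0879%, and over the 34958 probe sets with 1 symbol 0.0858%, with 0 of the 21 member probe sets called. At an unadjusted limma p under 0.05 stood 3 of the 8 genes, Cd93, Cd34 and Prom1, where 12.6% of all genes did, and 6 of the 21 probe sets, where 12.3% did. The 2 groups did not overlap in 2 of the 8 genes, Cd34 and Cd93, both lower in the arrays labelled Runx1-KO, where the groups did not overlap in 20.9% of all genes and 11.7% were lower without overlap. Among the 21 probe sets there were 7 without overlap, against 20.4% of all probe sets. The median log2 difference of the 8 genes, Runx1-KO minus Control, was 0.15, against -0.01 over all genes. For a single gene, an exact two-sided permutation test of 3 arrays against 3 cannot go below p = 0.1.

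**Figure D1:**
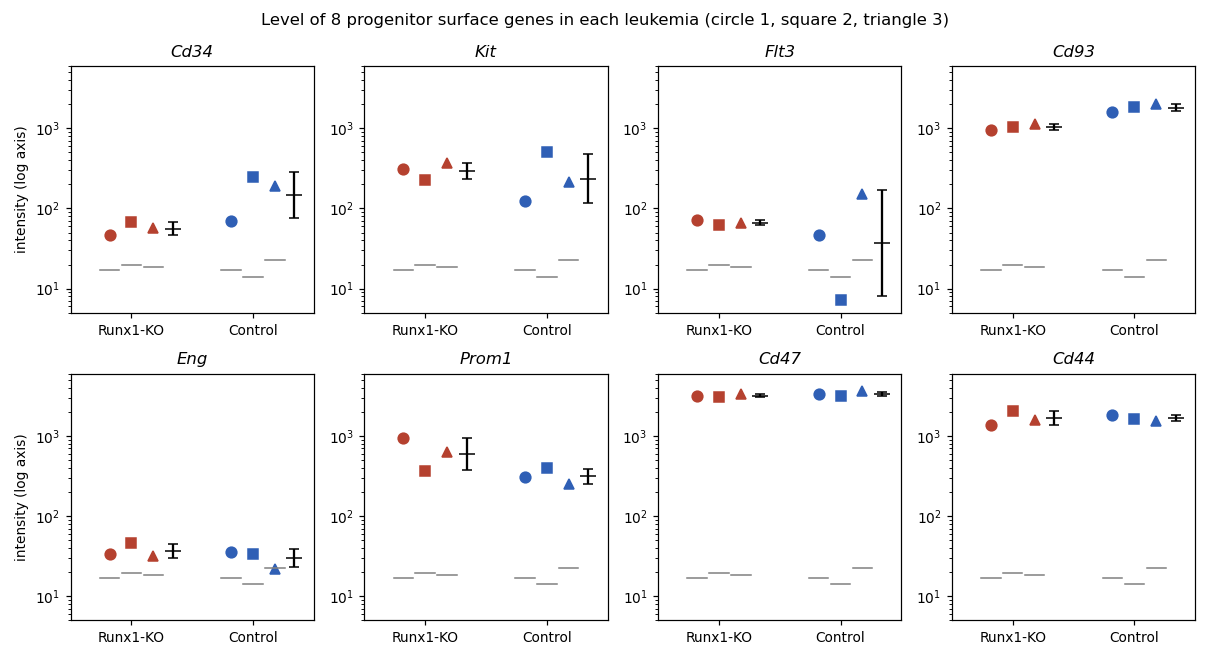
Intensity on a log axis of the brightest probe set of each of the 8 genes in the 3 arrays labelled Runx1-KO (red) and the 3 Control arrays (blue), with the geometric mean and 1 SD of the log2 values in black and each array's background limit as a grey line. Cd34 and Cd93 are lower in all 3 arrays labelled Runx1-KO than in any Control array, and Flt3 spans 7.29 to 150.2 among the Control arrays.

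Cd34 had the largest difference of the 8 genes. Its single probe set, 1416072_at, read 46.1, 67.0 and 57.5 in Runx1-KO 1, 2 and 3, and 69.4, 245 and 189 in Control 1, 2 and 3. The groups did not overlap, but Control 1 lay just above Runx1-KO 2 and far below the other Control arrays. The geometric mean intensity was 56.2 on arrays labelled Runx1-KO and 148 in Control, 2.63-fold lower. The log2 difference was -1.39 ± 0.49 (moderated SE, n = 3 in each group; 95% interval -2.58 to -0.21) with a limma adjusted p of 0.339. Without Control 1, the array with high erythroid genes, the log2 difference was -1.94, and without Control 2 it was -1.03. All 6 arrays were above their background limits.

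The receptor kinase genes Kit and Flt3 differed more among the Control leukemias than between the groups. On the brighter Kit probe set, 1452514_a_at, the arrays labelled Runx1-KO read 308, 229.6 and 364, and Control 1, 2 and 3 read 122, 504 and 212. The lowest and the highest Kit levels of the series were thus both in Control. The log2 difference was 0.33 ± 0.53 (95% interval -0.95 to 1.60, limma adjusted p = 0.834), and it turned to -0.15 without Control 1 and to -0.18 without both arrays numbered 1. The dimmer Kit probe set, 1415900_a_at, read 21.7, 36.5 and 45.2 against 12.1, 79.9 and 30.3, with Control 1 below background, and had a log2 difference of 0.10 ± 0.69.

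Flt3 was nearly equal on the 3 arrays labelled Runx1-KO and spread widely in Control. Its only probe set, 1419538_at, read 71.0, 62.4 and 66.3 in the arrays labelled Runx1-KO. In Control 1, 2 and 3 it read 47.0, 7.29 and 150.2, so Control 2 lay below its background limit of 14.1 and Control 3 stood above every other array. The fitted log2 difference of 0.84 ± 1.03 (95% interval -1.66 to 3.33, limma adjusted p = 0.776) was 0.52 with Control 2 raised to its limit and became -0.34 without Control 2. Control 2, the array with the highest Kit and Cd34 signal, was the one with the lowest Flt3 signal.

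Spread within the groups separated the members. The SD of log2 intensity was larger in Control for Cd34 (0.96 against 0.27), Kit (1.03 against 0.34) and Flt3 (2.20 against 0.09). The Control SD of Cd34 and Kit was 3.54 and 3.05 times the other, and that of Flt3 was 1.71 with Control 2 raised to its background limit, 18.3 times the other. It was larger in the arrays labelled Runx1-KO for Prom1 (0.68 against 0.33) and Cd44 (0.29 against 0.13), by 2.07 and 2.34 times. For Cd93, Eng and Cd47 the SDs of the groups were within 2 times of each other. Over all genes the Control SD was at least 2 times the other in 14.9% and at most 1/2 of it in 32.6%, so Cd34, Kit and Flt3 belonged to the less common kind. The limit of 2 was chosen after the values were seen, and an SD of 3 arrays is imprecise.

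**Figure D2:**
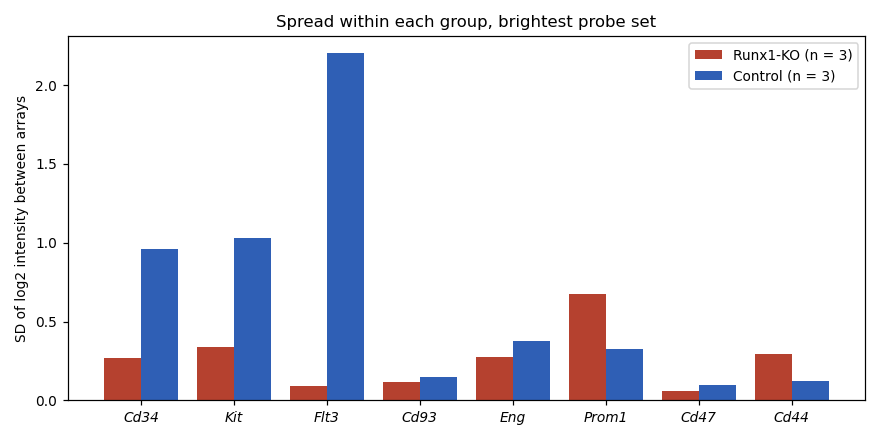
SD of log2 intensity between the 3 arrays of each group for the brightest probe set of each gene. The Control bars are the taller ones for Cd34, Kit and Flt3 (0.96, 1.03 and 2.20), and the Runx1-KO bars for Prom1 and Cd44 (0.68 and 0.29).

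Kit followed 2 genes of primary granules from array to array. Elane, which encodes neutrophil elastase, read 2851, 2672 and 3119 in Runx1-KO 1, 2 and 3 and 1830.1, 3603 and 2198 in Control 1, 2 and 3. Mpo, which encodes myeloperoxidase, read 5016, 4806 and 5127, and then 2558, 5770.0 and 3079. From lowest to highest, all 3 genes put the 6 arrays in the same order: Control 1, Control 3, Runx1-KO 2, Runx1-KO 1, Runx1-KO 3, Control 2. Control 1, the lowest, was also the array with high erythroid genes, and the part of other cells in this order was not tested.

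Kit was set against 38 marker genes above background on every array, taken from the lists of leukemic myeloid cells, mast cells and basophils, monocytes and macrophages, mature neutrophils, endothelial and erythroid cells. Of those 38 these 2 had the highest correlation with Kit, and markers of lymphocytes and platelets were not included. Pearson's r over the 6 arrays was 0.979 for Elane (exact permutation p = 0.00139, adjusted over the 38 relations p = 0.0264), or 0.905 without Control 1 and Control 2, the arrays farthest from the Kit median. For Mpo r was 0.909 (exact permutation p = 0.00139, adjusted p = 0.0264), or 0.735 without those 2 arrays. Spearman's rho was 1 for both (exact permutation p = 0.00278, adjusted p = 0.0528, which did not pass). Of 9702 other genes above background on all arrays, 0.113% shared the order of Kit. Hdc, the histamine-forming enzyme of mast cells and basophils, had r = 0.864 (rho = 0.943, exact permutation p = 0.00417 for r, adjusted p = 0.0528), and 0.815 without the 2 arrays, while the mast cell protease gene Cpa3 had r = -0.856 (rho = -0.943, exact permutation p = 0.0222 for r, adjusted p = 0.211). Of the 9 measured mast cell and basophil markers, 5 were above background on all 6 arrays (Hdc, Cpa3, Gata2, Cma1 and Mcpt8) and 2 were below it on all 6, Mcpt4 and Fcer1a. The summed intensity of the 9 was 629 to 848 on arrays labelled Runx1-KO and 409 to 833 in Control, and the part of such cells in the Kit values was not tested. Ctsg, a further primary granule gene, had r = 0.653 (rho = 0.486, exact permutation p = 0.189 for r, adjusted p = 0.683), or -0.167 without the 2 arrays. Elane, Mpo and Ctsg are from the list of leukemic myeloid cells, where Ptprc (r = -0.813) and Itgam (r = -0.721) ran against Kit. Their exact permutation p was 0.0403 and 0.1125 (adjusted p = 0.306 and 0.611). Cebpa, Hoxa9, Meis1 and Spi1 of that list had r from 0.240 to 0.466. On the dimmer Kit probe set r was 0.864 with Elane and 0.768 with Mpo. The relation of Kit to Elane and Mpo was noticed in the same arrays, so these p-values describe it and are not an independent test. They were adjusted over the 38 markers for Kit alone, without the other members. Within a group, 3 arrays are too few to test the relation.

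**Figure D3:**
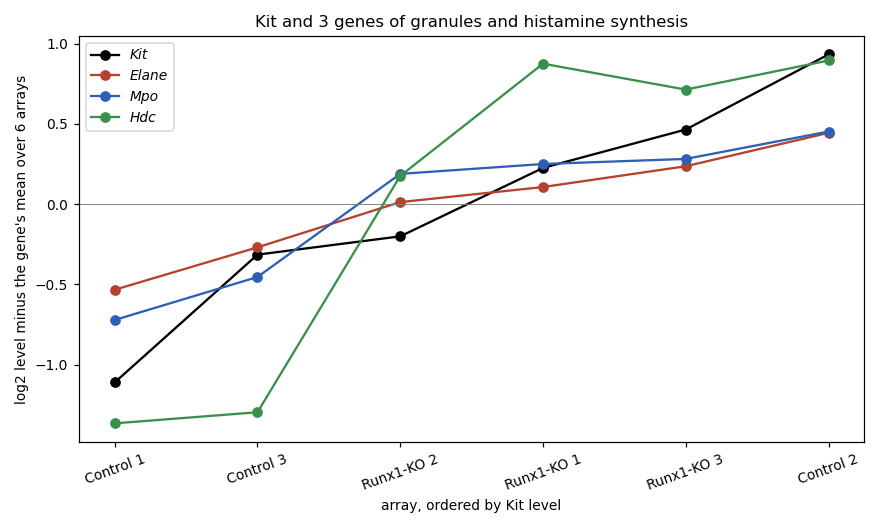
Log2 level of Kit, Elane, Mpo and Hdc minus each gene's mean over the 6 arrays, with arrays on the x axis ordered by Kit. Elane and Mpo climb in the order of Kit on all 6 arrays, from Control 1 to Control 2, whereas Hdc leaves that order once, between Runx1-KO 1 and Runx1-KO 3.

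Cd93 was lower in the arrays labelled Runx1-KO on 4 of its 5 probe sets. The brightest, 1441907_s_at, read 962, 1043 and 1134 on arrays labelled Runx1-KO and 1617, 1859 and 1983 in Control. The highest array labelled Runx1-KO stood well below the lowest Control array. Its geometric mean was 1044 against 1813, 1.74-fold lower, a log2 difference of -0.80 ± 0.18 (95% interval -1.24 to -0.35). The limma adjusted p was 0.221, and it was 0.0266 with a variance trend and robust fitting, within a range of 0.0266 to 0.495 over the alternatives. Without any 1 array the log2 difference stayed between -0.88 and -0.73, and with the mean of all 5 probe sets, 1 of them below background throughout, it was -0.46.

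The other Cd93 probe sets gave similar sizes. Probe set 1456046_at was 1.66-fold lower and 1419589_at 1.55-fold lower, both with no overlap. On 1449521_at, 1.51-fold lower, Runx1-KO 1 at 368 lay above Control 1 at 339.6. The remaining one, 1441908_x_at, was below background on all 6 arrays. Over 6 pairs of the 4 bright probe sets, Pearson's r across the arrays ran from 0.788 to 0.979, so these probe sets described one pattern and are not separate evidence.

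Monocytes also carry CD93, and most of their markers stood lower in the same arrays, though 0 of 10 passed the limma test over all genes (lowest adjusted p = 0.154, 7 at an unadjusted p under 0.05). Of the 10 monocyte and macrophage markers, 8 were lower and 2, Fcgr1 and Cx3cr1, higher, and 6 were lower without overlap, among them Csf1r, Irf8 and Adgre1, where 11.7% of all genes were. The 8 were above background on all 6 arrays, Fcgr1 on 1 array labelled Runx1-KO only, and Cx3cr1 on 1 array of each group. The summed intensity of the 10 was 3251 to 3643 on arrays labelled Runx1-KO and 5852 to 7599 in Control. Of 11 mature neutrophil markers, 0 passed over all genes (lowest limma adjusted p = 0.0523, 8 at an unadjusted p under 0.05) and 9 were higher without overlap, against 9.17% of all genes, with sums of 17254 to 19849 against 9082 to 13950.5. The part of these cells in the Cd93 and Cd34 values was not tested, and in bulk RNA fewer cells of a type and less RNA per cell cannot be told apart. Endothelial cells carry CD34, CD93 and endoglin. Of 14 endothelial markers, 7, including Cdh5, Kdr, Tek and Emcn, were below background on all 6 arrays, and 5, Erg, Pecam1, Flt1, Egfl7 and Vwf, were above it on all 6. Pecam1, also an adhesion protein of myeloid cells and platelets, read 89.2, 72.4 and 58.7 on arrays labelled Runx1-KO and 66.3, 139 and 170.0 in Control 1, 2 and 3. The sum of the 14, most of it Erg, ran from 793 to 1819 and from 1148 to 1404 in the 2 groups, and the part of endothelial cells was not tested.

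Eng was close to background throughout. Its brighter probe set, 1432176_a_at, read 34.1, 45.7 and 31.8 on arrays labelled Runx1-KO and 35.4, 34.1 and 22.2 in Control, where Control 3 was below its limit of 22.5. The groups overlapped, with a log2 difference of 0.30 ± 0.27 (95% interval -0.36 to 0.95, limma adjusted p = 0.689), and without Control 3 the log2 difference was 0.08. On the dimmer probe set, 1417271_a_at, readings of 19.9, 27.9 and 20.1 stood above 12.8, 16.3 and 13.4 with no overlap, and 1 of the 3 Control arrays was above background. With dim arrays raised to their limits that probe set was at least 1.22-fold higher where Runx1-KO was the label (limma adjusted p = 0.343 over all probe sets).

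Prom1 was higher in the arrays labelled Runx1-KO, with overlap. Its probe set, 1419700_a_at, read 929.5, 366 and 630.0 there and 309, 394 and 250.2 in Control. Runx1-KO 2 lay below Control 2, while the other 2 arrays labelled Runx1-KO were above all Control arrays. The geometric mean was 598 against 312, 1.92-fold higher, with a log2 difference of 0.94 ± 0.38 (95% interval 0.01 to 1.86, limma adjusted p = 0.392). The highest reading came from Runx1-KO 1, the array with the high Gapdh ratio. Without it the log2 difference was 0.62, and without Runx1-KO 2 it was 1.29.

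Cd47 varied least. On its brightest probe set, 1459908_at, the arrays labelled Runx1-KO read 3109.9, 3089 and 3329.7 and the Control arrays 3299, 3149 and 3585. The readings of the groups overlapped within a narrow range. The log2 difference was -0.07 ± 0.17 (limma adjusted p = 0.889), its 95% interval of -0.48 to 0.34 bounds a difference of either sign, and it turned to 0.0076 with quantile normalization. Of its 5 probe sets, all above background on every array, 4 were lower and 1 higher, with log2 differences from -0.15 to 0.08, and 2 showed no overlap, 1419554_at and 1430997_at. Across the arrays these 5 agreed poorly, with r from -0.202 to 0.935 over 10 pairs.

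Cd44 showed no difference in mean on its brightest probe set. Probe set 1434376_at read 1386, 2065 and 1584 on arrays labelled Runx1-KO and 1822, 1606 and 1543 in Control. The log2 difference was 0.00 ± 0.22 (95% interval -0.53 to 0.53, limma adjusted p = 0.9997), and its sign changed in 5 of 15 alternatives. On 1423760_at the readings were 373, 1173 and 639 against 946, 764 and 823, and on 1452483_a_at 639, 1518 and 917 against 1155, 1059 and 1248. On all 3 bright probe sets Runx1-KO 2 was the highest of the 6 arrays and Runx1-KO 1 the lowest. Whether the Gapdh 3' to 5' ratio of 7.10 in Runx1-KO 1 has a part in its low Cd44 readings was not tested. The fourth probe set, 1443265_at, was above background on 3 of the 6 arrays.

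**Figure D4:**
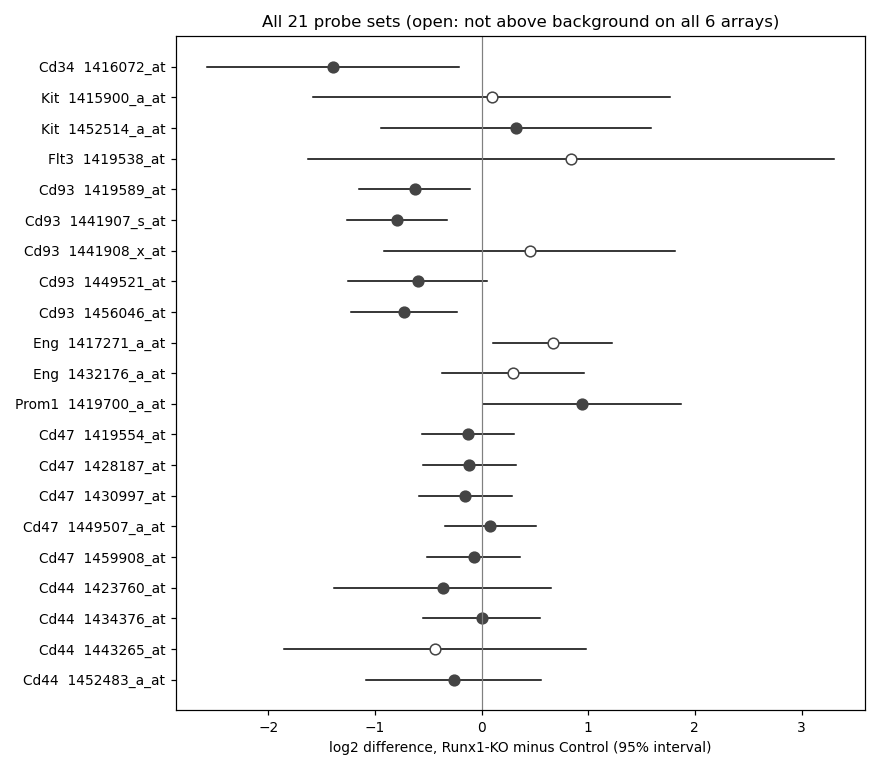
Log2 difference (Runx1-KO minus Control) of each of the 21 probe sets with its 95% interval from limma, filled where all 6 arrays were above background. The 4 filled Cd93 points lie between -0.80 and -0.60, the 5 Cd47 points between -0.15 and 0.08, and the intervals of Flt3 and Kit span 0 widely.

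Genes that act with the members were followed in 5 lists, and 0 of their 98 measured genes passed the limma test over all genes, with 21 at an unadjusted p under 0.05, where 12.6% of all genes were. The counts without overlap below are to be read against 9.17% of all genes higher and 11.7% lower, 20.9% in all. Of the ligands and binding partners, 19 were measured, and 3 were higher and 2 lower without overlap (20.9% in all genes). The median log2 difference was -0.07, and 7 of the 19 were below background on all arrays. Among those 7 were both genes counted as lower, C1qa and the KIT ligand gene Kitl. Thbs1, whose product thrombospondin-1 binds CD47, read 81.7, 312 and 206 on arrays labelled Runx1-KO and 10.6, 33.7 and 9.82 in Control. It was at least 7.42-fold higher with dim arrays at their limits, with 1 of 3 Control arrays above background (limma adjusted p = 0.179). Selp, which encodes the adhesion receptor P-selectin, read 143, 110.1 and 108.0 against 8.55, 31.7 and 32.0 on its brightest probe set, at least 4.63-fold higher, with 2 of 3 Control arrays above background (limma adjusted p = 0.200). The fitted log2 difference was 2.54 on that probe set and 1.69 as the mean of its 3 probe sets. Of the 9 megakaryocyte and platelet markers, a list that holds Selp, 8 were higher, with sums of 619 to 1241 against 478 to 704, and the part of platelets in these values was not tested.

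Downstream of KIT and FLT3, 27 adaptor, kinase and phosphatase genes were all above background on every array. Without overlap, 1 was higher and 4 were lower, a share near the 20.9% of all genes, with a median log2 difference of -0.07. Sos2, a RAS guanine nucleotide exchange factor, read 859, 906 and 1051 in the arrays labelled Runx1-KO against 471, 421 and 518 in Control. Every array labelled Runx1-KO was above every Control array, with a log2 difference of 0.998 ± 0.188 (limma adjusted p = 0.179), or adjusted p = 0.0266 with a variance trend and robust fitting, within a range of 0.0266 to 0.388. Ptpn6, which encodes the phosphatase SHP-1 that dampens KIT signalling, read 599.7, 754 and 691 against 1212, 1025 and 949. It was 1.56-fold lower, with a log2 difference of -0.64 ± 0.20 (limma adjusted p = 0.304) and both of its probe sets lower.

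TGF-beta and BMP receptors and SMADs, the partners of endoglin, were listed together with Id1, Id2 and Id3, which are neither receptors nor SMADs. The list had a median log2 difference of 0.41 over 18 genes, with 5 higher and 1 lower without overlap (all genes 9.17% and 11.7%). Id2, at 1.57, was 1 of the 5, and Id1 and Id3 were higher with overlap, at 0.51 and 0.68. Smad7, an inhibitory SMAD, read 69.1, 103 and 109 in the arrays labelled Runx1-KO against 32.2, 47.8 and 53.4, a log2 difference of 1.08 ± 0.29 (limma adjusted p = 0.262). Its other probe set, also above background on all arrays, gave 0.28 with overlap, and the mean of both gave 0.68. The BMP receptor gene Bmpr1a was above background in 1 array labelled Runx1-KO and in 0 Control arrays (limma adjusted p = 0.197). With dim arrays of both groups raised to their limits it was 1.26-fold higher, which is not a lower bound. Of its 6 probe sets, 5 were below background on all arrays. The CD44 list held linkers and proteases, and also the kinase genes Met and Src, which are neither. Of its 10 genes, 1 was higher and 1 lower without overlap, a share near the 20.9% of all genes, with a median of 0.02. Msn, encoding moesin, which ties CD44 to actin, read 1684, 1829 and 1719.5 against 2333, 1997 and 2035 (log2 difference -0.28 ± 0.17, limma adjusted p = 0.544). The gene counted as higher, the metalloproteinase gene Mmp14, was below background on all arrays.

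Other surface proteins of stem and progenitor cells were listed with Hlf, a transcription factor gene that was below background on all arrays. The median log2 difference was -0.20 over the 24 measured genes, with 1 higher and 6 lower without overlap (all genes 9.17% and 11.7%). The 6 were Cd48, Cd27, Csf2ra, Itga4, Fcgr2b and Cxcr4, and the monocyte markers, 6 of 10 lower without overlap, stood lower in the same arrays, whose part in these values was not tested. Lowest by p came Cd48, a SLAM-family adhesion protein gained as stem cells become committed progenitors. It read 216, 283 and 204 in the arrays labelled Runx1-KO against 644, 603 and 643 in Control. The gap was wide compared with the spread in either group, 2.72-fold, with a log2 difference of -1.44 ± 0.20 (limma adjusted p = 0.108). It passed with an offset of 16, over the brighter genes, with a variance trend and with array weights (adjusted p = 0.0302, 0.0354, 0.0167 and 0.0391), within a range of 0.0167 to 0.338. Procr, the endothelial protein C receptor of stem cells, read 18.9, 18.3 and 24.4 against 2.28, 1.42 and 7.82. It was above background in 2 of 3 arrays labelled Runx1-KO and in no Control array (limma adjusted p = 0.207). With dim arrays of both groups raised to their limits it was 1.19-fold higher, which is not a lower bound.

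**Figure D5:**
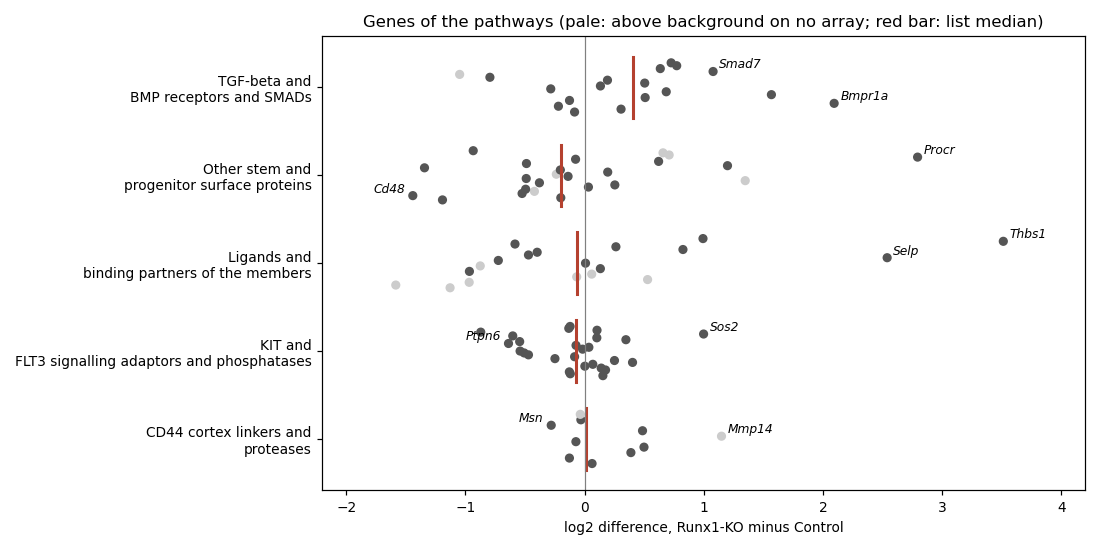
Log2 difference (Runx1-KO minus Control) of each measured gene of the 5 lists, pale where it was above background on no array, with the list median as a red bar and the genes described in the text named. The TGF-beta and BMP list, with Id1, Id2 and Id3, has its median at 0.41. The other surface proteins, listed with Hlf, have theirs at -0.20, and Cd48 lies at -1.44.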

How the data were processed

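The authors deposited 1 table of linear probe set intensity for 6 arrays, and per the labels cDNA was labelled with biotin. The values lay on a common scale with a floor of 1, and 1 value was below it. How probes were summarised and arrays normalized, and scan dates, are not given in the sources used here, so batches could not be examined. Symbols came from the platform annotation: 34958 of 45101 probe sets had 1 symbol, 932 several and 9211 none. Looked up by Entrez identifier in RefSeq, 34754 were found and 0 changed. The probe set with the highest mean stood for each gene. Log2 intensity was compared with limma 3.58.1 (lmFit and eBayes, R 4.3.3) by a two-sided test without covariates or a filter, at an adjusted p of 0.05. The script was tested on simulated data with 200 changed genes. It called 0 of the 200 at a true log2 difference of 1, 102 at 2 and 146 at 3.

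A dim array was raised to its background limit where a fold is given as at least a value. For Bmpr1a and Procr arrays of both groups were raised, so their folds are not lower bounds. No fold is given where both groups were dim. The members and lists were chosen with earlier results of these data known. Named genes were the 8 members and, in each list, the 2 genes lowest by p among those with no overlap between the groups. List genes with no probe set of 1 symbol are not analysed here. Separate leukemias are named per the labels' design text. Deviations from the group mean correlated with r of -0.010, -0.093 and 0.039 between same-numbered arrays. Between differently numbered arrays r ran from -0.108 to 0.099. The deviations are from means of 3 arrays, so these values cannot decide whether the numbers pair the arrays. Alternatives were quantile normalization, median centring, an offset of 16, the brighter genes only, the mean of all probe sets, robust fitting with a variance trend, array weights, a replicate block, leaving out each array and, added after seeing the data, leaving out both arrays numbered 1.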

Additional observations from a re-analysis of the deposited data

How the results depend on the processing

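The number of arrays, 3 per group, limited precision, and Flt3, Eng and the dimmer Kit probe set were also limited by signal near background. Cd34, Cd93, Eng and Prom1 kept their sign in every alternative run that could give a value, and Eng had none over the brighter genes. With a variance trend and robust fitting 1 member gene and 1 member probe set passed (Cd93, -0.80), as did 2 genes of the lists (Sos2, Cd48). 1 list gene, Cd48, passed with the offset of 16, over the brighter genes and with array weights. Member genes without overlap numbered 1 with quantile normalization (20.3% of all genes) and 2 to 4 with an array left out (28.8% to 36.2% of all genes, since fewer arrays overlap less). Without any 1 array, 0 members and 0 list genes passed. The sign turned for Cd47 with quantile normalization (0.0076), for Kit without Control 1 (-0.15) and without both arrays numbered 1 (-0.18), for Flt3 without Control 2 (-0.34), and for Cd44 with the mean of all probe sets (-0.27), with array weights (-0.019) and without Runx1-KO 2, Control 2 and Control 3 (-0.16, -0.02 and -0.05). The cause was not tested. With 1 array left out, values ran from -0.15 to 0.88 for Kit, 0.08 to 0.42 for Eng, -0.34 to 1.84 for Flt3 and -0.16 to 0.13 for Cd44. The count over all genes was 16, against 64 with the offset, 43 over the brighter genes, 104 with a variance trend, 71 with array weights, 2 or 3 without 1 array and 0 without both arrays numbered 1 (all limma). With the replicate block it was 0 of all genes, 0 members and 0 list genes, and the adjusted p of Cd93 was 0.412.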

Other observations

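For each member above background on all arrays, the 2 genes with the most similar level over the 6 arrays were sought among 9703 genes so measured. These are descriptions from 6 points, and for Cd34 and Cd93 they include the difference between the groups. For Cd34 they were Ankrd17 (r = 0.989) and Btnl9 (r = 0.980), and for Cd93 Rnaseh2a (r = 0.997) and Exoc8 (r = 0.995). For Kit they were Rpp30 (r = 0.985) and Cacna1b (r = 0.982), and for Prom1 Rfxank (r = 0.998) and Trip11 (r = 0.988). Cd47 was most similar to Mbnl1 (r = 0.978) and Nup98 (r = 0.972), and Cd44 to Etohd2 (r = 0.991) and Nxnl1 (r = 0.986). Spearman's rho was 0.943 or 1 for all 12, and none of the 12 passed the limma test between the groups, with adjusted p from 0.336 to 0.966.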
